A study of Mus musculus with 8 samples.

Results

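The genes described here encode the catalytic subunits of the proteasome and its 11S activators, read in Tregs and Tconvs of mice with or without sustained CD27 engagement. The members were the rows of the deposited table named Psmb5, Psmb6 and Psmb7 (constitutive catalytic subunits), Psmb8, Psmb9 and Psmb10 (their inducible counterparts), and Psme1, Psme2 and Psme3 (11S activators). They were 9 of the 52636 rows, taken by name, and each name was on a single row. The list of names was chosen with earlier results of these data known.

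RNA was sequenced from CD4+ Foxp3+ cells (Tregs) and CD4+ Foxp3- cells (Tconvs), sorted by Foxp3 reporter from the spleens of CD27+/- control mice and of CD11c-Cd70tg;CD27+/- mice (CD70Tg), with 2 libraries in each of the 4 groups and 200000 cells in each library. All mice were thus heterozygous for the Cd27 deletion. Spleen cells of such mice were analysed at 6 to 8 weeks of age. In CD70Tg mice, CD70, the ligand of CD27, is driven by the CD11c promoter, which is active mainly in dendritic cells. The control libraries are titled F1, the study's name for CD27+/- mice, but are also named WT in the sample labels and KO in the table. They were taken as the CD27+/- controls. CD25+ cells were depleted before the sort of Tconvs but not before that of Tregs, so that the 2 subsets also differed in how they were purified.

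The proteasome degrades proteins marked with ubiquitin, in a barrel-shaped core whose inner rings hold the catalytic subunits. In most tissues these are the products of Psmb5 (chymotrypsin-like), Psmb6 (caspase-like) and Psmb7 (trypsin-like). In lymphocytes, and in other cells exposed to interferon-gamma, newly built cores take up the products of Psmb8, Psmb9 and Psmb10 in their place, which gives the immunoproteasome and a set of peptides better suited to MHC class I. Psme1 and Psme2 encode PA28-alpha and PA28-beta, which form a ring that caps the core and are inducible by interferon-gamma, while Psme3 encodes PA28-gamma, the nuclear member of the family, which is not.

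The 2 classes of catalytic subunit are known to be under different transcriptional control, and the stretches before their start sites are shown for the members whose 250 bases before the RefSeq start held a match to a textbook element. The elements searched, on both strands, were the interferon-gamma activated site GAS (TTCNNNGAA), an interferon response element (GAAA, any 2 bases, GAAA) and the antioxidant response element (TGACNNNGC), which is bound by the NRF factors that act on constitutive proteasome genes. A start site from RefSeq (GRCm38.p6) was found for 8 of the 9 members, all but Psmb7. The matched letters are in capitals in the following stretches of 30 bases, written 5′ to 3′ on the strand of the gene.
Psmb5, antioxidant response element, chr14:54618023-54618052, minus strand: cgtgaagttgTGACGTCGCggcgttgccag
Psmb6, antioxidant response element, chr11:70525327-70525356, plus strand: acagaggcggactaaagagagTGACGGAGC
Psmb8, GAS, chr17:34198088-34198117, plus strand: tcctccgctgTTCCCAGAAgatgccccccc
The matches lay 39 to 47 bases before the start of Psmb5, 1 to 9 bases before that of Psmb6 and 89 to 97 bases before that of Psmb8. In GENCODE the last of these lies inside the span of Psmb8, since longer transcripts of this gene begin further upstream. The same letters were found in 10.2% of 32851 RefSeq windows of this length for the antioxidant response element, in 7.02% for GAS and in 2.98% for the interferon response element, which had no match in the windows of the 8 members. The matches did not overlap one another. A match of letters is a description and says nothing of binding in these cells.

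On the GRCm38 build, Psmb8 (chromosome 17, 34197721 to 34201454, plus strand) and Psmb9 (chromosome 17, 34181987 to 34187764, minus strand) lie in the MHC, on either side of Tap1. Psmb10 lies apart from them on chromosome 8 (105935735 to 105938444). Psmb5 (54614119 to 54618022), Psme1 (55578123 to 55581529) and Psme2 (55587441 to 55591113) are on chromosome 14, with 5911 bases between the 2 activator genes. Psmb6 (70525367 to 70527858) and Psme3 (101316213 to 101323537) are on chromosome 11, and Psmb7 is on chromosome 2 (38588036 to 38644087). The values count reads over the exons of a gene as a whole. Some exon bases were shared with a gene on the other strand, namely 14.7% of those of Psmb8 (with Gm20496), 11.8% of Psmb7 (with Nek6), 5.8% of Psmb9 (with Tap1) and 0.6% of Psme1 (with Emc9), and on the same strand 12.1% of those of Psmb5 (with Mir686). Whether the counting used the strand is not given in the sources used here. The main transcript of Psme2 was 99.4% identical, over 794 aligned bases, to Psme2b, a copy without introns on chromosome 11, so that reads may be split between these rows and the values of Psme2 are uncertain. Counterpart pairs were far less alike, with 70.8% identity for Psmb8 and Psmb5, 66.9% for Psmb9 and Psmb6, and 65.7% for Psmb10 and Psmb7 over the aligned stretches, and no shared run longer than 18 bases.

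Values are read counts scaled by the authors to 20 M reads on genes per library, with totals between 19963628 and 20164600. The low values rise in steps of 1 read, which gave 19.5 and 9.56 M reads on genes for the first and second library of control Tconvs. CD70Tg Tconvs had 6.94 and 33.3 M, control Tregs 4.12 and 4.57 M, and CD70Tg Tregs 1.92 and 3.68 M. The 33.3 and 19.5 M are the less certain, since 1 read is there worth about 1 or less. The members were well covered even so, with 113 reads behind the thinnest value (Psmb5 in the shallowest CD70Tg Treg library) and 22430 behind the deepest (Psmb8 in a CD70Tg Tconv library), which gives a counting error of 9.40% and 0.668% (SD, which covers counting error only). The Treg markers Foxp3, Il2ra, Ikzf2, Ctla4 and Il2rb were 5 of 5 higher in Tregs than in Tconvs in both genotypes. Cd27 lay between 2980 and 3359 in the Tconv and between 5173 and 6123 in the Treg libraries, and Cd70 between 0 and 9 in control and between 11 and 44 in CD70Tg libraries. These Cd70 values rest on few reads. The 11 came from the first CD70Tg Treg library, where 1 read is worth 10.4. The 9 came from the second control Treg library, where 1 read is worth 4.38. Nothing in the sources says that the libraries of a group came from separate mice, so that p-values measure the spread between libraries, which may be technical. In sorted bulk samples, fewer cells of a type and less RNA per cell cannot be told apart.

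The first comparison was between genotypes, and asked whether CD27 engagement went with a different level of the catalytic subunits. The 3 inducible subunits rose in CD70Tg mice in both subsets, by 1.32- to 1.72-fold, while for the 3 constitutive subunits the values of the genotypes overlapped. Of the activators, Psme2 rose in Tregs. With limma at an adjusted p-value under 0.05, 4 of the 9 members were higher in CD70Tg Tregs and 0 lower (0 also at an unadjusted p-value under 0.05), against 3.94% and 3.46% of the 12816 genes tested. In Tconvs 3 of 9 were higher and 0 lower, against 6.82% and 1.99% of genes. The 3 inducible subunits were the members higher in both subsets, as were 2.3% of all genes tested. The median log2 fold change over all genes tested was -0.05 in Tregs and 0.01 in Tconvs. No member changed by more than 1 on the log2 scale, so that 0 passed the further fold threshold that the study used, which 2.53% of genes passed upwards in Tregs and 4.07% in Tconvs. Fold changes are on the scale of log2(value + 5) throughout.

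**Figure D1:**
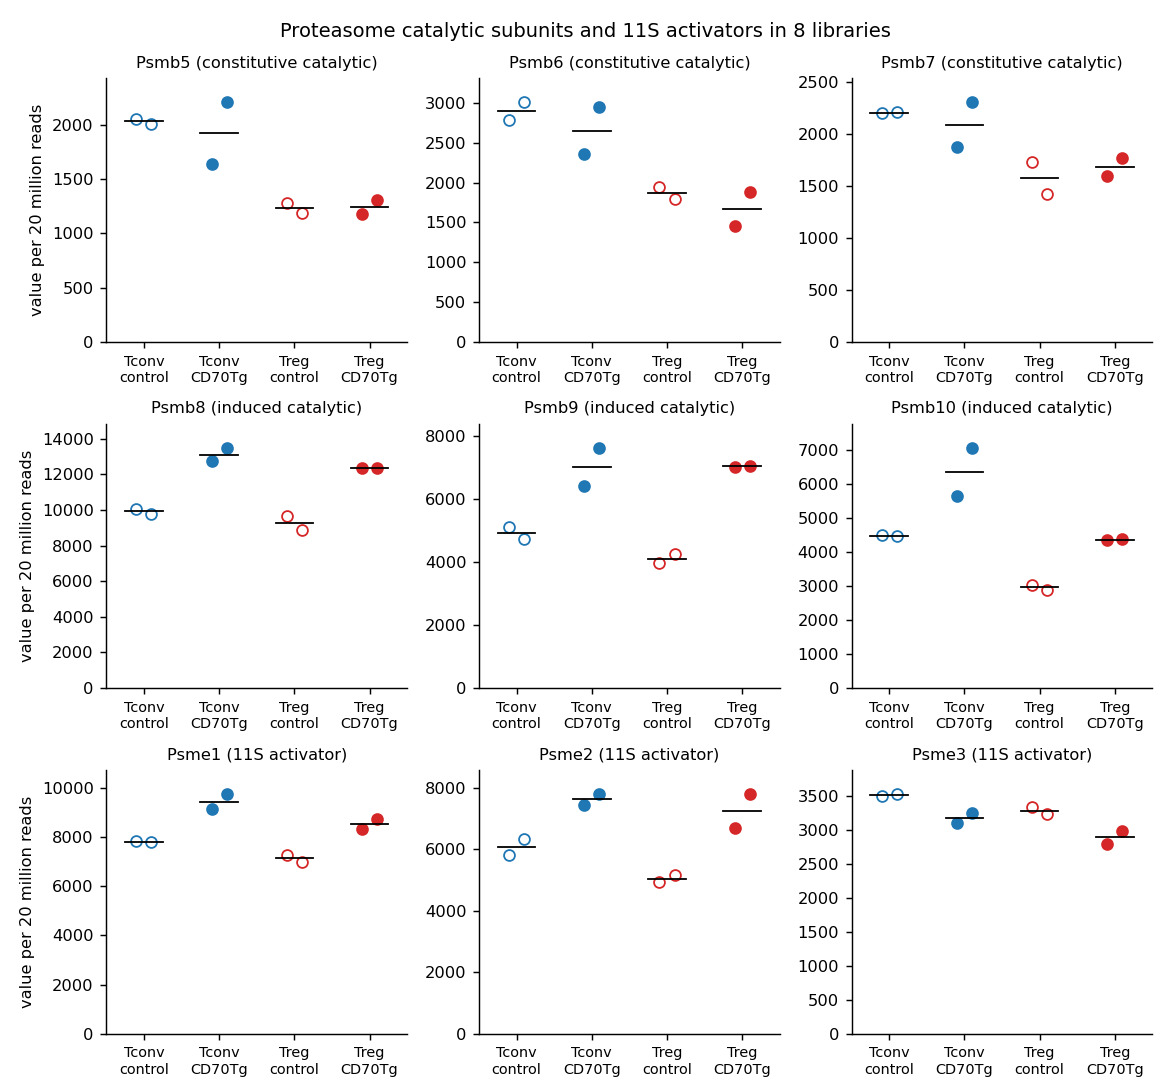
Value per 20 M reads (vertical axes, from 0) of the 9 genes in the 4 groups (horizontal axes), by row constitutive subunits, inducible subunits and activators. Each circle is 1 library (open for control, filled for CD70Tg, blue for Tconvs, red for Tregs) and the bars are group means, and the filled circles of Psmb8, Psmb9 and Psmb10 lie above the open ones in both subsets while those of Psmb5, Psmb6 and Psmb7 do not separate from them.

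Psmb9 encodes LMP2 (β1i), the subunit that replaces the caspase-like Psmb6. Its values were 3965 and 4243 in control Tregs and 7022 and 7063 in CD70Tg Tregs, and 5097 and 4732 in control Tconvs and 6420 and 7615 in CD70Tg Tconvs. Both CD70Tg libraries lay above both controls in each subset, and the CD70Tg Treg libraries reached the level of the CD70Tg Tconv libraries. The log2 fold change was 0.78 (SE 0.116, limma adjusted p = 0.000509) in Tregs and 0.51 (SE 0.116, adjusted p = 0.00874) in Tconvs.

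Psmb10 encodes MECL-1 (β2i), the counterpart of the trypsin-like Psmb7. It stood at 3048 and 2895 in control Tregs and at 4347 and 4383 in CD70Tg Tregs, and at 4497 and 4474 in control Tconvs and 5665 and 7066 in CD70Tg Tconvs. The genotypes did not overlap in either subset, but the CD70Tg Treg libraries still lay below the control Tconv libraries. The log2 fold change was 0.55 (SE 0.119, limma adjusted p = 0.00905) in Tregs and 0.50 (SE 0.119, adjusted p = 0.0129) in Tconvs. The 2 CD70Tg Tconv libraries were further apart (SD 991) than those of any other group for this gene.

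Psmb8 encodes LMP7 (β5i), the counterpart of the chymotrypsin-like Psmb5. It was at 9632 and 8854 in control and 12340 and 12343 in CD70Tg Tregs, and at 10057 and 9791 in control and 12747 and 13467 in CD70Tg Tconvs. Again no CD70Tg library overlapped a control. The log2 fold change was 0.42 (SE 0.111, limma adjusted p = 0.0306) in Tregs and 0.40 (SE 0.111, adjusted p = 0.0314) in Tconvs, the smallest of the inducible subunits and the closest to the threshold. With median-of-ratios scaling its adjusted p-value in Tconvs was 0.0780, and with quantile normalization that in Tregs was 0.0511.

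With only 2 libraries a group, these calls depended on single libraries. Psmb9 in Tregs passed without any one of the 8 libraries, with adjusted p-values up to 0.0268. The number of members called higher in Tregs fell from 4 to 2 without the first CD70Tg Treg library, and to 1 without the second or without either control Treg library. In Tconvs the number fell from 3 to 0 without the second control or the second CD70Tg Tconv library. The log2 fold changes of the inducible subunits themselves stayed positive in each of these fits, between 0.36 and 0.83 in Tregs and between 0.34 and 0.66 in Tconvs.

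The constitutive subunits gave no such separation. Psmb5 was at 1282 and 1187 in control and 1181 and 1305 in CD70Tg Tregs, and at 2056 and 2003 in control and 1640 and 2205 in CD70Tg Tconvs. Psmb6 was at 1946 and 1800 in control and 1453 and 1887 in CD70Tg Tregs, and at 2782 and 3005 in control and 2352 and 2949 in CD70Tg Tconvs. Psmb7 was at 1733 and 1423 in control and 1599 and 1768 in CD70Tg Tregs, and at 2199 and 2212 in control and 1876 and 2303 in CD70Tg Tconvs. The values of CD70Tg and control libraries overlapped for each of these genes in both subsets, and in both subsets the first CD70Tg library, the shallower of the pair, was the lower one for all 3. The limma log2 fold changes in Tregs were 0.01 for Psmb5 (95% confidence interval -0.29 to 0.31), -0.18 for Psmb6 (-0.48 to 0.13) and 0.10 for Psmb7 (-0.19 to 0.39). In Tconvs they were -0.09 (-0.40 to 0.21), -0.13 (-0.44 to 0.17) and -0.09 (-0.37 to 0.20) in the same order. The adjusted p-values lay between 0.525 and 0.979, and the intervals reach to -0.48 on one side and 0.39 on the other.

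**Figure D2:**
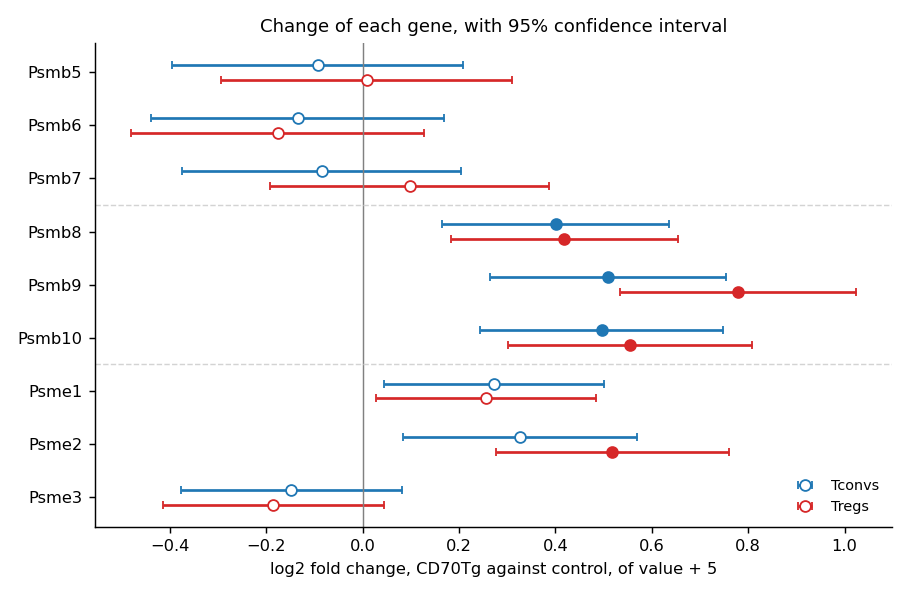
Log2 fold change of CD70Tg against control (horizontal axis, on value + 5) for each of the 9 genes (vertical axis) in Tconvs (blue) and Tregs (red), with 95% confidence intervals from limma and filled circles where the adjusted p-value is under 0.05. Psmb8, Psmb9 and Psmb10 lie between 0.40 and 0.78, and Psmb5, Psmb6 and Psmb7 between -0.18 and 0.10.

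Since an inducible subunit takes the place of its own counterpart, the ratio of the 2 was taken within each library, where it does not depend on how that library was scaled. The ratio of Psmb9 to Psmb6 was 2.04 and 2.36 in control and 4.83 and 3.74 in CD70Tg Tregs, and 1.83 and 1.58 in control and 2.73 and 2.58 in CD70Tg Tconvs. The ratio of Psmb10 to Psmb7 was 1.76 and 2.03 in control and 2.72 and 2.48 in CD70Tg Tregs, and 2.05 and 2.02 in control and 3.02 and 3.07 in CD70Tg Tconvs. The ratio of Psmb8 to Psmb5 was 7.51 and 7.46 in control and 10.5 and 9.46 in CD70Tg Tregs, and 4.89 and 4.89 in control and 7.77 and 6.11 in CD70Tg Tconvs. For all 3 pairs both CD70Tg libraries were above both controls in each subset. Averaged over the subsets, the ratio rose by 0.80 on the log2 scale for Psmb9 to Psmb6 (1.74-fold), by 0.52 for Psmb10 to Psmb7 (1.43-fold) and by 0.45 for Psmb8 to Psmb5 (1.37-fold). An exact two-sided permutation test of genotype within subset gave p = 0.0556 for each pair, also after adjustment over the 3 pairs. This is the smallest p that its 36 arrangements allow, so that the design could not reach 0.05.

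Divided by the length of the main transcript, the ratios give the share of each pair's transcripts that came from the inducible gene, which is a share of RNA and not of assembled subunits. For Psmb9 it was 54.6 and 58.2% in control and 74.0 and 68.8% in CD70Tg Tregs, and 52.0 and 48.2% in control and 61.7 and 60.4% in CD70Tg Tconvs. For Psmb10 it was 60.9 and 64.3% in control and 70.6 and 68.7% in CD70Tg Tregs, and 64.4 and 64.2% in control and 72.8 and 73.1% in CD70Tg Tconvs. For Psmb8 it was 80.6 and 80.5% in control and 85.2 and 83.9% in CD70Tg Tregs, and 73.0 and 73.0% in control and 81.1 and 77.1% in CD70Tg Tconvs. By this length, transcripts of the inducible gene were the larger share in all control libraries for Psmb8 and Psmb10. For Psmb9 they were so in all but the second control Tconv library. The shares depend on the length used, and other lengths were not tried. All exons together span 3.66 kb for Psmb9, 1.872 for Psmb6, 3.381 for Psmb8, 0.899 for Psmb5, 1.705 for Psmb10 and 3.421 for Psmb7. The main transcripts have 1.352, 0.798, 1.628, 0.899, 1.311 and 1.16 kb in the same order. The share of the inducible gene was higher in the CD70Tg libraries of each subset than in its controls.

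**Figure D3:**
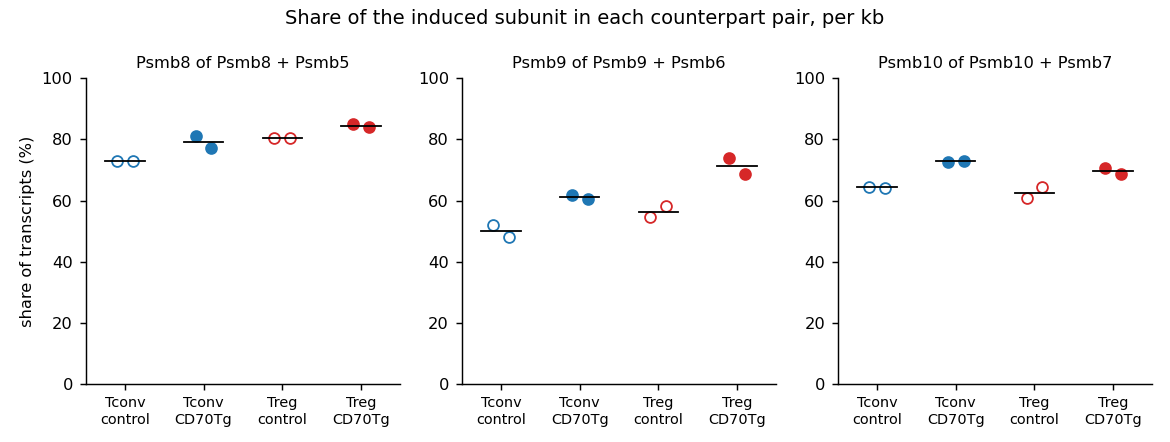
Share (%) of the transcripts of each counterpart pair that came from the inducible gene, from values divided by transcript length, in the 4 groups (horizontal axes). Each circle is 1 library, open for control and filled for CD70Tg, and the bars are means, and the share of Psmb9 spans the widest range, from 48.2% in a control Tconv library to 74.0% in a CD70Tg Treg library.

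Of the 11S activators, Psme2 (PA28-beta) was at 4926 and 5149 in control and 6687 and 7786 in CD70Tg Tregs, and at 5824 and 6330 in control and 7445 and 7791 in CD70Tg Tconvs. Psme1 (PA28-alpha) was at 7269 and 7006 in control and 8328 and 8727 in CD70Tg Tregs, and at 7833 and 7810 in control and 9145 and 9759 in CD70Tg Tconvs. For both genes the CD70Tg libraries lay above the controls in each subset. The log2 fold change of Psme2 was 0.52 (SE 0.115, limma adjusted p = 0.0106) in Tregs and 0.33 (SE 0.115, adjusted p = 0.0973) in Tconvs. That of Psme1 was smaller, 0.26 (adjusted p = 0.176) in Tregs and 0.27 (adjusted p = 0.157) in Tconvs, and passed in neither subset.

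Since Psme2 may share reads with Psme2b, both rows were also summed, a step chosen after the values were seen. Psme2b gave 17.7 and 19% of the sum in control and 18.8 and 16.9% in CD70Tg Tregs, and between 11.6 and 13.4% in the Tconv libraries. The log2 fold change of the sum was 0.51 in Tregs (limma adjusted p = 0.0121) and 0.34 in Tconvs (adjusted p = 0.0808), on the same side of the threshold as Psme2 alone.

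Psme3, the nuclear activator, had values on the other side. It was at 3334 and 3236 in control and 2801 and 2980 in CD70Tg Tregs, and at 3495 and 3531 in control and 3098 and 3245 in CD70Tg Tconvs. Both CD70Tg libraries lay below both controls in each subset, as they did for 31.2% of the genes tested in Tregs and 21.4% in Tconvs. The log2 fold change was -0.19 (95% confidence interval -0.41 to 0.04, limma adjusted p = 0.350) in Tregs and -0.15 (-0.38 to 0.08, adjusted p = 0.538) in Tconvs, so that it passed in neither. In the other direction, 5 members (Psmb8, Psmb9, Psmb10, Psme1 and Psme2) had both CD70Tg values above both control values in each subset, against 22.5% of genes in Tregs and 23.7% in Tconvs.

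Levels can be compared between genes only per length, here as the value per kb of the main transcript. The order of the genes rests on this length, and other lengths were not tried. In control Tconvs the order was Psme1 (7034 ± 14.6 per kb, SD, n = 2), Psme2 (6317 ± 372), Psmb8 (6096 ± 116), Psmb9 (3635 ± 191), Psmb6 (3626 ± 198), Psmb10 (3421 ± 12.4), Psmb5 (2258 ± 41.7), Psmb7 (1901 ± 7.92) and Psme3 (1319 ± 9.56). Psme2 and Psmb8 overlapped in this order, as did Psmb9 and Psmb6. In control Tregs Psme1 (6419 ± 167) was again first, followed by Psmb8 (5678 ± 338), Psme2 (5236 ± 164) and Psmb9 (3036 ± 145). Psmb6 (2347 ± 129) and Psmb10 (2267 ± 82.5) overlapped with each other there, and Psmb7 (1360 ± 189) overlapped with both Psmb5 (1373 ± 74.7) and Psme3 (1233 ± 26.0). In CD70Tg Tregs Psme1 (7669 ± 254), Psmb8 (7580 and 7582 in its 2 libraries) and Psme2 (7522 ± 808) overlapped at the top, and Psmb9 (5209 ± 21.4) and Psmb10 (3330 ± 19.4) stood above all constitutive subunits. In CD70Tg Tconvs Psmb8 (8051 ± 313) overlapped with both Psme1 (8500 ± 390) and Psme2 (7919 ± 254), and Psmb9 (5190 ± 625) with Psmb10 (4855 ± 756). By group mean, Psmb10 had changed places with Psmb6 (2093 ± 385) in CD70Tg Tregs, and with Psmb6 (3321 ± 529) in CD70Tg Tconvs. Psme3 was the lowest of the 9 in all 4 groups by group mean.

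The responses of Tregs and Tconvs were then compared directly, as the difference between their log2 fold changes. Of the 9 members, 0 passed at an adjusted p-value under 0.05 in limma, also with limma-voom, and 0 at an unadjusted p-value under 0.05, while 1.02% of all genes passed at an adjusted p-value under 0.05. The difference was 0.27 for Psmb9 (95% confidence interval -0.08 to 0.62, limma adjusted p = 0.611), 0.06 for Psmb10 (-0.30 to 0.42) and 0.02 for Psmb8 (-0.32 to 0.35). It was 0.19 for Psme2 (-0.15 to 0.53), which passed in Tregs and not in Tconvs. These intervals are wide, and the subsets are not shown to respond alike.

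Apart from genotype, Tregs had lower values of the constitutive subunits than Tconvs. Every Treg library was shallower (1.92 to 4.57 M reads on genes) than every Tconv library (6.94 to 33.3 M). Depth and purification therefore cannot be told apart from subset here. In control mice Psmb5 was lower in Tregs by 0.72 on the log2 scale (limma adjusted p = 0.000706), Psmb6 by 0.63 (adjusted p = 0.00211) and Psmb7 by 0.49 (adjusted p = 0.00816). The inducible Psmb10 was lower as well, by 0.59 (adjusted p = 0.000756). These were 4 of 9 members lower and 0 higher, against 18.4% of genes lower and 27.5% higher, so that differences between the subsets were common. Psmb8 (-0.10, adjusted p = 0.468), Psmb9 (-0.26, adjusted p = 0.0775), Psme1 (-0.13, adjusted p = 0.334), Psme2 (-0.27, adjusted p = 0.0650) and Psme3 (-0.10, adjusted p = 0.487) did not pass. With median-of-ratios scaling or quantile normalization Psmb9 (adjusted p = 0.0134 and 0.0291) and Psme2 (adjusted p = 0.0316 and 0.0425) passed too. Without the second control Treg library Psmb7 did not pass (adjusted p = 0.138).

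In CD70Tg mice 3 of 9 members were lower in Tregs and 0 higher, against 20.1% and 22.6% of genes. Psmb6 was lower by 0.67 (limma adjusted p = 0.00153), Psmb5 by 0.61 (adjusted p = 0.00271) and Psmb10 by 0.54 (adjusted p = 0.00202). Psmb7 (-0.31, adjusted p = 0.0824) passed only without the first CD70Tg Tconv library (adjusted p = 0.0249). The value for Psmb9 was 0.01 (95% confidence interval -0.24 to 0.26) and that for Psmb8 -0.09 (-0.32 to 0.15). Psme1 (-0.15), Psme2 (-0.08) and Psme3 (-0.13) did not pass either, with adjusted p-values between 0.286 and 0.613. In each of the 4 Treg libraries the ratio of Psmb8 to Psmb5 was thus above that of the Tconv libraries of the same genotype.

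The rest of the proteasome was taken from a list of 42 genes, of which 40 were tested. The thymus-specific Psmb11 and the testis-specific Psma8 had values between 0 and 5 and were not. In Tregs 0 of the 40 were higher and 1 lower in CD70Tg mice, with a median log2 fold change of 0.01, and in Tconvs 0 were higher and 0 lower, with a median of -0.05. Over all genes tested 3.94% were higher and 3.46% lower in Tregs and 6.82% and 1.99% in Tconvs, so that counts this low among 40 genes lie near the background. At an unadjusted p-value under 0.05 there were 2 in Tregs (Psmd5 and Psme2b) and 1 in Tconvs (Psme2b), and under limma-voom, other scalings or with a library left out at most 1 of the 40 was called higher. The 1 gene lower in Tregs was Psmd5, a chaperone of the assembly of the 19S base, at 1150 and 1029 in control and 742 and 822 in CD70Tg Tregs (log2 fold change -0.48, limma adjusted p = 0.0415). That call was lost without any 1 of the 4 Treg libraries, under limma-voom and with no minimum value.

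By part of the complex, the 7 tested alpha subunits of the core had log2 fold changes of -0.07 to 0.20 in Tregs and -0.18 to 0.06 in Tconvs, and the 4 other beta subunits (Psmb1, Psmb2, Psmb3 and Psmb4) of -0.05 to 0.19 and -0.06 to 0.15. The 6 ATPases of the 19S cap (Psmc1 to Psmc6) lay between -0.06 and 0.05 in Tregs and between -0.07 and 0.02 in Tconvs. The 12 other 19S subunits lay between -0.26 and 0.16 and between -0.15 and 0.05. All of these were short of the smallest change among the inducible subunits, 0.42 in Tregs and 0.40 in Tconvs, which of the 40 genes Psme2b alone exceeded (0.47, limma adjusted p = 0.0568, and 0.45, adjusted p = 0.0618). Pomp, the chaperone that assembles new cores and favours immunoproteasomes, was at 2213 and 2168 in control and 2310 and 2491 in CD70Tg Tregs, and its log2 fold change was 0.13 (adjusted p = 0.635) in Tregs and -0.03 (adjusted p = 0.940) in Tconvs.

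Between the subsets the picture was another one. Of the same 40 genes, 21 were lower and 2 higher in control Tregs than in control Tconvs (median log2 difference -0.34, against 0.07 over all genes, of which 18.4% were called lower and 27.5% higher). The count lower became 8 without control Treg library 2, 12 without control Tconv library 1 and 14 without control Treg library 1, 12 with no minimum value and 28 with median-of-ratios factors. In CD70Tg mice 21 were lower and 2 higher (median -0.35, against -0.02 over all genes, of which 20.1% were called lower and 22.6% higher). There the count lower became 5 without CD70Tg Tconv library 2, 7 without CD70Tg Treg library 1 and 11 without CD70Tg Treg library 2, 10 with no minimum value and 12 under limma-voom. Among the alpha subunits 5 of 7 were lower in each genotype, and among the other beta subunits 3 of 4 in control and 4 of 4 in CD70Tg mice. The constitutive catalytic subunits had values of -0.49 to -0.72 in the same comparison in control mice. The factors known to act on constitutive proteasome genes did not pass between genotypes in either subset, with log2 fold changes of 0.00 and 0.20 for Nfe2l1, 0.20 and -0.38 for Nfe2l2 and -0.17 and 0.12 for Ddi2 in Tregs and Tconvs. Between the subsets Nfe2l2 was at 641 and 570 in control Tregs against 2598 and 2118 in control Tconvs (log2 difference -1.95, limma adjusted p = 3.72e-08), and it was lower in CD70Tg Tregs than in CD70Tg Tconvs as well (-1.37, adjusted p = 2.75e-06). Ddi2 was higher in control Tregs than in control Tconvs (0.49, limma adjusted p = 0.00214), and its difference in CD70Tg mice, 0.21, did not pass (adjusted p = 0.151). Nfe2l1 passed between the subsets in neither genotype, with log2 differences of 0.18 in control (limma adjusted p = 0.274) and -0.02 in CD70Tg mice (adjusted p = 0.908).

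**Figure D4:**
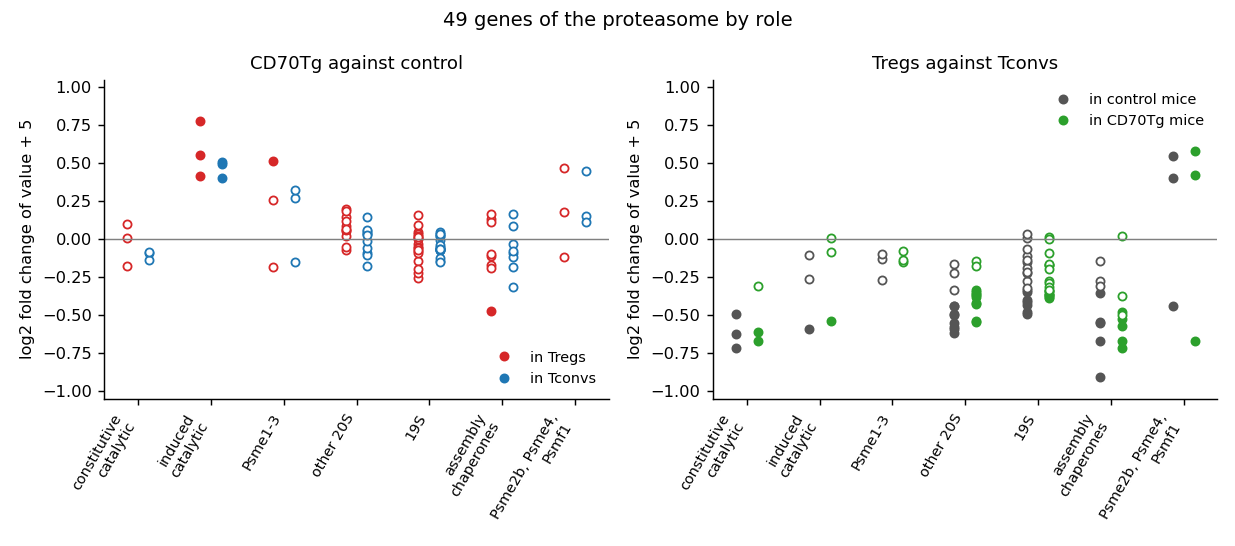
Log2 fold change (vertical axes, on value + 5) of the 49 tested genes of the proteasome, grouped by role (horizontal axes), for CD70Tg against control on the left (red Tregs, blue Tconvs) and Tregs against Tconvs on the right (grey control, green CD70Tg). Each circle is 1 gene, filled where the limma adjusted p-value is under 0.05, and on the left the inducible subunits stand above a body of genes near 0 while on the right most core subunits lie below 0.

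Genes known to act with or upstream of the immunoproteasome were then read from lists chosen by function. Of 5 genes for the loading of MHC class I, 3 rose in both subsets, as did 2.3% of all genes tested. Tap1 and Tap2, which form the peptide transporter, rose by 0.73 (limma adjusted p = 0.00197) and 0.64 (adjusted p = 0.00905) on the log2 scale in Tregs and by 0.78 (adjusted p = 0.000550) and 0.62 (adjusted p = 0.00770) in Tconvs. Tapbp (tapasin), which links the transporter to class I molecules, rose by 0.45 (adjusted p = 0.0265) and 0.43 (adjusted p = 0.0269). B2m, the light chain of class I, did not pass (0.41, adjusted p = 0.278, and 0.04, adjusted p = 0.955), and its values in Tconvs were widely spread (27097 and 37017 in control, 43249 and 24444 in CD70Tg). Erap1, which trims peptides in the endoplasmic reticulum, did not pass either (-0.03 and 0.20).

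Of 7 genes of the interferon-gamma pathway, 3 were higher and 0 lower in CD70Tg Tregs, and 5 were higher and 1 lower in CD70Tg Tconvs, against 3.94% and 3.46% of all genes tested in Tregs and 6.82% and 1.99% in Tconvs. Ifng itself was at 64 and 71 in control and 168 and 300 in CD70Tg Tregs, and at 105 and 72 in control and 718 and 2111 in CD70Tg Tconvs. Its log2 fold change was 1.67 (limma adjusted p = 0.0163) in Tregs, on 13 to 55 reads a library, and 3.75 (adjusted p = 6.91e-06) in Tconvs.

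Irf1, an interferon-inducible transcription factor that acts on the promoters of Psmb9 and Tap1, rose by 0.83 (limma adjusted p = 0.00258) in Tregs and 0.96 (adjusted p = 0.000384) in Tconvs. The receptor chain Ifngr1 rose by 1.12 (adjusted p = 4.26e-05) and 1.04 (adjusted p = 2.08e-05), while Ifngr2 was lower in Tconvs (-0.59, adjusted p = 0.0161) and did not pass in Tregs (-0.23, adjusted p = 0.389). Nlrc5, the transactivator of MHC class I genes, rose by 1.01 in Tconvs (adjusted p = 2.52e-05) and was at 0.39 in Tregs (adjusted p = 0.0639). The kinase Jak2 rose by 0.39 in Tconvs (adjusted p = 0.0377) and was at 0.08 in Tregs (adjusted p = 0.753), and Jak1 passed in neither (-0.12 and 0.06). The difference between the subsets passed for 0 of the 7 in limma, and for 2 at an unadjusted p-value under 0.05, namely Ifng (-2.08, adjusted p = 0.105) and Nlrc5 (-0.63, adjusted p = 0.110).

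Psmb9, Tap1, Psmb8 and Tap2 follow each other on chromosome 17. The starts of Psmb9 and Tap1 are 211 bases apart, with the genes pointing away from each other and overlapping, 495 bases separate Tap1 from Psmb8, and 2072 bases separate Psmb8 from Tap2. All 4 rose in both subsets, Psmb8 by the least. Of the 2 further genes that GENCODE places in this stretch, both on the opposite strand, Gm20496 overlaps Psmb8 and Tap2, and Gm15821 lies within Tap2. Gm20496 was at 5362 and 4970 in control and 6646 and 6775 in CD70Tg Tregs (log2 fold change 0.38, limma adjusted p = 0.0675) and at 5714 and 4930 in control and 6809 and 7985 in CD70Tg Tconvs (0.47, adjusted p = 0.0179). Gm15821 rose by 0.66 (adjusted p = 0.0124) and 0.62 (adjusted p = 0.0143). Without knowledge of the strand, reads of these genes and of those they overlap cannot be told apart.

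**Figure D5:**
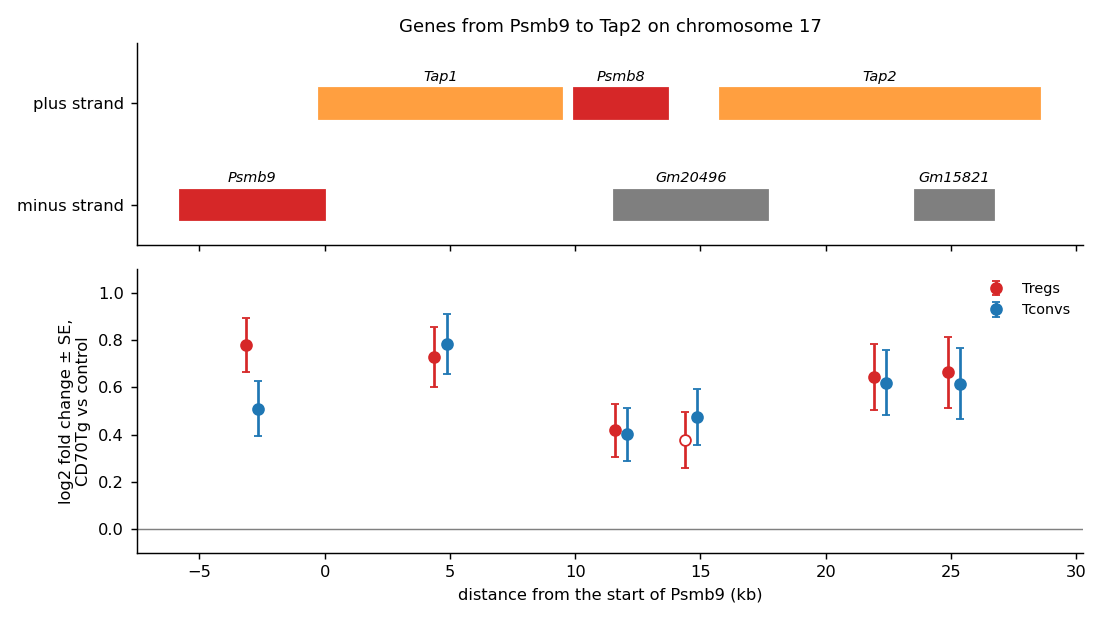
Genes from Psmb9 to Tap2 on chromosome 17 by strand (top, red for proteasome subunits, orange for the transporter, grey for overlapping genes), against the distance in kb from the start of Psmb9 (horizontal axis). The lower panel gives for each gene, at its middle, the log2 fold change of CD70Tg against control with its SE in Tregs (red) and Tconvs (blue), filled where the limma adjusted p-value is under 0.05, and all 12 values lie above 0.

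Several cell type markers moved with the genotype and are given beside these results. Over all genes tested, 3.94% were called higher and 3.46% lower in CD70Tg Tregs, and 6.82% and 1.99% in CD70Tg Tconvs. The summed value of 8 markers of myeloid and dendritic cells was 3081 to 3421 in control and 4486 to 4550 in CD70Tg Tregs, and 1838 to 2120 in control and 1669 to 2702 in CD70Tg Tconvs. In Tregs 3 of the 8 were higher, namely Zbtb46 (25 and 27 in control, 209 and 191 in CD70Tg), H2-Aa (238 and 552, 1254 and 1485) and Itgam, and Csf1r was lower. In Tconvs Cd68 (79 and 51 in control, 245 and 306 in CD70Tg, log2 fold change 2.02, limma adjusted p = 0.000108) and Itgax (log2 fold change 1.76, adjusted p = 0.0152) were higher, and Itgam was lower (178 and 166, 93 and 80). The CD8 T cell markers Cd8a and Cd8b1 together were at 317 to 417 in control and 631 to 660 in CD70Tg Tregs, and at 681 to 720 in control and 1563 to 1590 in CD70Tg Tconvs. Cd8a alone was at 25 and 71 in control and 262 and 223 in CD70Tg Tregs (log2 fold change 2.37, limma adjusted p = 0.00121), and at 17 and 28 in control and 508 and 608 in CD70Tg Tconvs (4.38, adjusted p = 9.81e-07). Cd8b1 rose by less in Tconvs (0.58, limma adjusted p = 0.0377) and did not pass in Tregs (0.34, adjusted p = 0.26). Of 6 markers of cycling cells, 5 were higher in CD70Tg Tconvs (Mki67, Top2a, Ccnb1, Cdk1 and Birc5) and 0 in CD70Tg Tregs, where their sum was 6961 to 7076 against 4928 to 5292. In Tregs the log2 fold changes of the 6 lay between -0.13 and 0.81. The difference between the subsets passed for 0 of the 6 in limma. The B cell markers summed to between 168 and 505 in all libraries. The NK cell markers summed to 544 to 624 in control and 185 to 240 in CD70Tg Tconvs, and in the Treg libraries, where they summed to between 11 and 64, Ncr1 was at 0. Among them Klrb1c was lower in CD70Tg mice, at 403 and 423 in control and 75 and 68 in CD70Tg Tconvs (log2 fold change -2.45, limma adjusted p = 0.00275), and at 64 and 36 in control and 0 and 11 in CD70Tg Tregs (adjusted p = 0.00352), where the CD70Tg values stand for 0 and 2 reads. Klrd1 passed in neither subset. It was at 129 and 180 in control and 104 and 153 in CD70Tg Tconvs (log2 fold change -0.26, limma adjusted p = 0.843). In Tregs it was at 0 in control and at 11 and 6 in CD70Tg libraries, 1 read each (1.41, adjusted p = 0.0749). Of the 5 Treg markers, Il2rb (6410 and 7075 in control, 13098 and 14868 in CD70Tg, limma adjusted p = 2.36e-05) and Ctla4 (493 and 496, 663 and 1090, log2 fold change 0.78, adjusted p = 0.00588) were higher in CD70Tg Tconvs. Foxp3 (log2 fold change -0.02, limma adjusted p = 0.956), Ikzf2 (0.19, adjusted p = 0.578) and Il2ra (-0.55, adjusted p = 0.0529) did not pass there. The part of these cells in the rise of the inducible subunits was not tested.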

How the data were processed

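Score values were deposited by the authors as a single table of 52636 genes and 8 libraries. Before that they had trimmed reads (Trimmomatic 0.36), aligned them to mm10 (STAR 2.5.3), counted them per gene (HTSeq 0.9.1), scaled every library to 20 M and rounded up, so that the values are not counts. The columns name a group but no sample, and were used as its 2 libraries. Rows named after genomic clones (4131) were not used, because the spacing of their low values differed from that of the other rows in the same column, and where a name was on several rows (97 names) the row with the largest total kept it. Both of these choices were made after values had been seen. A scaled and rounded value can hide the depth of a library, so the value of 1 read was recovered from the steps of the low values.

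The 12816 genes that reached 60 in 2 or more libraries, all 9 members among them, were fitted with limma 3.58.1 in R 4.3.3 (trend in the prior variance, 12.3 prior degrees of freedom) on log2(value + 5), with 1 coefficient for each of the 4 groups. P-values were adjusted by the method of Benjamini and Hochberg over all genes tested, at a threshold of 0.05. Ratios were compared by an exact permutation test. The members, lists and tests were chosen with earlier results of these data known. The genes named were the 9 members, every gene of the antigen processing and interferon-gamma lists (1 gene is not reported here), of each other list at most the 5 genes with the smallest adjusted p-value under 0.05 between genotypes, and the 3 genes of most similar pattern for each inducible subunit. Genes named outside this rule (Cd27, Cd70, Psme2b, Pomp, the NRF factors, the genes of the chromosome 17 stretch, Csf1r, Ncr1, Psmb11, Psma8 and names that only spell out a list) were named after their values were seen. The same holds for the results given for Foxp3, Ikzf2, Il2ra and Klrd1. The alternatives tried were pseudocounts of 1 and 20, dropping the minimum, requiring over 10 in every library, median-of-ratios factors, quantile normalization, limma-voom on recovered reads, the libraries of a subset alone, leaving out each library, an adjusted p-value under 0.01, and the study's fold threshold. Positions and transcript lengths are from GENCODE M21 (GRCm38) and promoter windows from RefSeq.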

Additional observations from a re-analysis of the deposited data

How the results depend on the processing

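The threshold decided how many members were called more than their direction. Of the 9 members, the number higher in CD70Tg Tregs was 4, and became 1 with no minimum value, 2 at an adjusted p-value under 0.01, 0 when a log2 fold change over 1 was also required, and 5 with the Treg libraries alone (Psme1 then passing, adjusted p = 0.0457), and ranged from 1 to 4 with a library left out. The number higher in CD70Tg Tconvs was 3, and became 0 with no minimum value, 5 with limma-voom on recovered reads, 1 with the Tconv libraries alone, 1 at an adjusted p-value under 0.01 and 0 with the fold threshold, and ranged from 0 to 3 with a library left out. The numbers lower in Tregs than in Tconvs were 4 in control and 3 in CD70Tg mice, and both became 0 with the fold threshold. Without a minimum, 26467 genes entered the fit and its adjustment. No called member changed direction under any alternative. Psmb9 in Tregs passed under all of them but the fold threshold, with adjusted p-values from 9.64e-06 to 0.0268, whereas Psmb8 in Tconvs did not pass under 12 of 19. Psmb10 in Tregs missed the threshold with limma-voom (adjusted p = 0.0593), under which Psme1 (adjusted p = 0.0367) and Psme2 (adjusted p = 0.0265) passed in Tconvs. Among all genes, those higher in Tregs ranged from 175 to 829 and in Tconvs from 314 to 1339. The mean log2 change of the ratios kept its sign, between 0.36 and 0.54 for Psmb8 to Psmb5, 0.71 and 0.89 for Psmb9 to Psmb6 and 0.47 and 0.57 for Psmb10 to Psmb7. Apart from the effect of fewer libraries or more genes, the cause of these shifts was not tested. No paired analysis was possible because the columns of the table carry no replicate numbers, and the planned fit with the replicate number as a block was not run.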

Other observations

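Over the 8 libraries, the genes whose pattern was most like that of an inducible subunit were read from the root mean square difference of log2 values, each gene centred on its own mean. For Psmb8, whose own values had a root mean square of 0.21 around their mean, they were Tapbp (0.04), Anxa6 (0.06) and the overlapping Gm20496 (0.07). For Psmb10 (own 0.39) they were the interferon-inducible Oas3 (0.08), Lgals3bp (0.09) and Bst2 (0.09). For Psmb9 (own 0.34) they were the ubiquitin ligase Rnf125 (0.07), thioredoxin (Txn1, 0.10) and Cdc42ep3 (0.11). Their log2 fold changes in CD70Tg mice lay between 0.35 and 0.82 in Tregs and between 0.28 and 0.63 in Tconvs. These genes were picked for this likeness among 12816, so that it is a description.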
